A study of Mus musculus with 6 samples.

Results

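The genes described here are 47 components of T cell receptor (TCR) and NF-kB signalling, taken by symbol from a fixed list, and all 47 were present among the 24982 rows of the deposited count table. That table writes symbols in capitals (TXK, THEMIS, CBLB, UBASH3B), which are given here in mouse style. All 47 also passed the filter on low counts, among 11772 genes tested. Of these, 28 were treated as activating components (kinases, adaptors, calcineurin, NFAT and NF-kB factors and the surface proteins Cd2 and Cd6) and 19 as negative regulators. RNA had been sequenced from mouse spleen CD4+CD25+CD127lo natural regulatory T cells (nTreg cells, which restrain other immune cells) of strain B6.129, 8 to 10 weeks old. One group was labelled WT and the other (KO) carried Srsf1-flox/flox with dLck.Cre, a Cre recombinase driven by the distal promoter of Lck and thus active in T cells, with 3 libraries each. The labels do not say whether the WT mice carried a floxed allele or the Cre. Sorted cells of both groups had been stimulated for 72 h with antibodies to CD3 (2 µg/ml) and CD28 (2 µg/ml) and with interleukin-2 (10 ng/ml), so that the levels are those of activated cells and no unstimulated sample was compared. Values of a group are given in the order of its replicates 1, 2 and 3.

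When the TCR binds its ligand, the kinases Lck and Fyn phosphorylate the receptor chains, and the scaffolds Lat and Lcp2 (SLP-76) then gather Plcg1, Vav1, Grap2 and Grb2 into one complex. Calcium released by Plcg1 activates the phosphatase calcineurin, which lets NFAT factors enter the nucleus, while diacylglycerol recruits Rasgrp1 to the Ras pathway and protein kinase C theta (Prkcq) to the Bcl10 and Malt1 complex that frees NF-kB from its inhibitor Nfkbia. Ubiquitin ligases, phosphatases, diacylglycerol kinases and inhibitory adaptors damp each of these steps, and in Treg cells this pathway is known to be needed for their development and suppressive function.

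Several NF-kB genes are themselves known NF-kB targets, and the promoter stretches that hold an NF-kB type motif are shown so that its letters can be read beside the values of these members. Promoter windows of 300 bases (250 before and 50 after the transcription start; RefSeq, GRCm38.p6) were found for 33 of the 47 members. The kappaB-type motif GGGNNTTTCC, searched on both strands (GGAAANNCCC on the other), was present in a window of 4 members, Nfkbia, Rel, Tnfaip3 and Nfkb2. It occurred in 1.63% of all 32851 windows and in a window of 2.11% of the 9339 tested genes that had one. A match is a description of letters and not evidence of binding. Stretches upstream of the start are printed 5′ to 3′ in the direction of the gene, with the match in capitals. Nfkb2 has several listed starts, and a further match, 225 to 216 bases before another of them, is not printed.
Nfkbia (chr12:55492648-55492731, minus strand, match 29 to 20 bases before the start): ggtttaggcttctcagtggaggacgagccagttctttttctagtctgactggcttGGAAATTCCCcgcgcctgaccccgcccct
Rel (chr11:23770996-23771115, minus strand, match 91 to 82 bases before the start): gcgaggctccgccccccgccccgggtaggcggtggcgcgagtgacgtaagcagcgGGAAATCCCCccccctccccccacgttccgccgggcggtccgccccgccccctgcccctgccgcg
Tnfaip3 (chr10:19015411-19015477, minus strand, match 12 to 3 bases before the start): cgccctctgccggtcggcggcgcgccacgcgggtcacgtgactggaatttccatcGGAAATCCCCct
Nfkb2 (chr19:46304671-46304736, plus strand, match 11 to 2 bases before the start): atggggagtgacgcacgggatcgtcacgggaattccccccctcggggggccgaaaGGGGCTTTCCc
The matches of Rel and Tnfaip3 have the same 10 letters, and that of Nfkbia differs from them within the unfixed part of the motif. The log2 fold change of KO against WT was +0.83 for Nfkbia (SE 0.35), +0.78 for Nfkb2 (SE 0.45), -0.07 for Rel (SE 0.33) and -0.15 for Tnfaip3 (SE 0.26), none of which passed the test described next. With KO replicates 2 and 3 set against WT replicates 1 and 2 alone, the values were +0.38, -0.07, +0.01 and +0.10, so that the sign turned for all but Nfkbia.

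No member passed the threshold between KO and WT libraries. In edgeR's quasi-likelihood test, with Benjamini-Hochberg adjustment over all genes tested and a threshold of 0.05, 0 of 47 members were called, where 0.017% of all genes (2 of 11772) were. At an unadjusted p under 0.05 there were 10 members, 6 with higher and 4 with lower values in KO, or 21.3% of the list, where 7.51% of all genes tested stood there (4.75% higher and 2.76% lower). DESeq2 called 1 member, Txk (1.1% of all genes were called by DESeq2), while limma voom and limma on log2 FPKM values called 0. The 3 KO libraries lay entirely above or entirely below the 3 WT libraries for 12 members (7 above, 5 below), or 25.5%, where 15.7% of all genes tested did so (7.48% above, 8.18% below). Between KO replicates 2 and 3 and WT replicates 1 and 2 alone, the share of members that did not overlap, 38.3%, lay below that of all genes, 45.9%. Members above 0 numbered 26 of 47 (55.3%, against 51.6% of all genes tested), with a median log2 fold change of +0.14 against +0.02 for all genes. The members were listed with results of these libraries known, so these shares describe the list and do not test it.

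Total counts were 20373649, 13241964 and 10183626 in the KO libraries and 23263741 to 27562046 in WT, so each KO library was the shallower, but even the scarcest member, Txk, had 57 counts or more in each library. Srsf1, the targeted gene, stood at 1214, 1230 and 755 CPM (gene counts normalised for library size and composition) in the WT libraries and at 438, 812 and 787 CPM in the KO libraries. The library labelled WT replicate 3 thus lay below KO replicates 2 and 3, and every direction given here, with that library counted as WT, follows the labels. Because KO replicate 1 and this library recur at the extremes below, a fit without these 2, called the 2 against 2 fit, is given beside the results they touch. KO replicate 1 stood apart from the rest, with correlations of log2 CPM across genes of 0.900 to 0.927 with the other 5 libraries and a mismatch rate of 0.52% per base against 0.32% to 0.43%. Each group held 2 female mice and 1 male, judged from Xist and Ddx3y. The T cell and Treg markers Cd3e, Cd4, Il2ra, Foxp3, Ikzf2 and Ctla4 were present in all libraries, but did not go 1 way. Foxp3 was at 104 to 160 CPM in the WT libraries and 357 to 464 CPM in the KO libraries. Ctla4 was at 431 to 1105 CPM in the WT libraries and 224 to 574 CPM in the KO libraries. Log2 fold changes were +1.68 for Foxp3, +0.91 for Ikzf2, +0.70 for Cd4, +0.68 for Cd3e, -0.09 for Il2ra and -0.79 for Ctla4. Markers of CD8 T cells (Cd8a and Cd8b1, both measured) summed to 193 to 269 CPM in the WT libraries and 38.9 to 60.5 CPM in the KO libraries. Their log2 fold changes were -1.92 and -2.68, and 1 of them (edgeR adjusted p = 0.0166) was among the 2 genes called over all genes tested. As CD8 T cells use the same signalling genes, and as fewer cells of a type and less RNA per cell cannot be told apart in bulk RNA, the part of CD8 T cells in the values below was not tested.

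**Figure D1:**
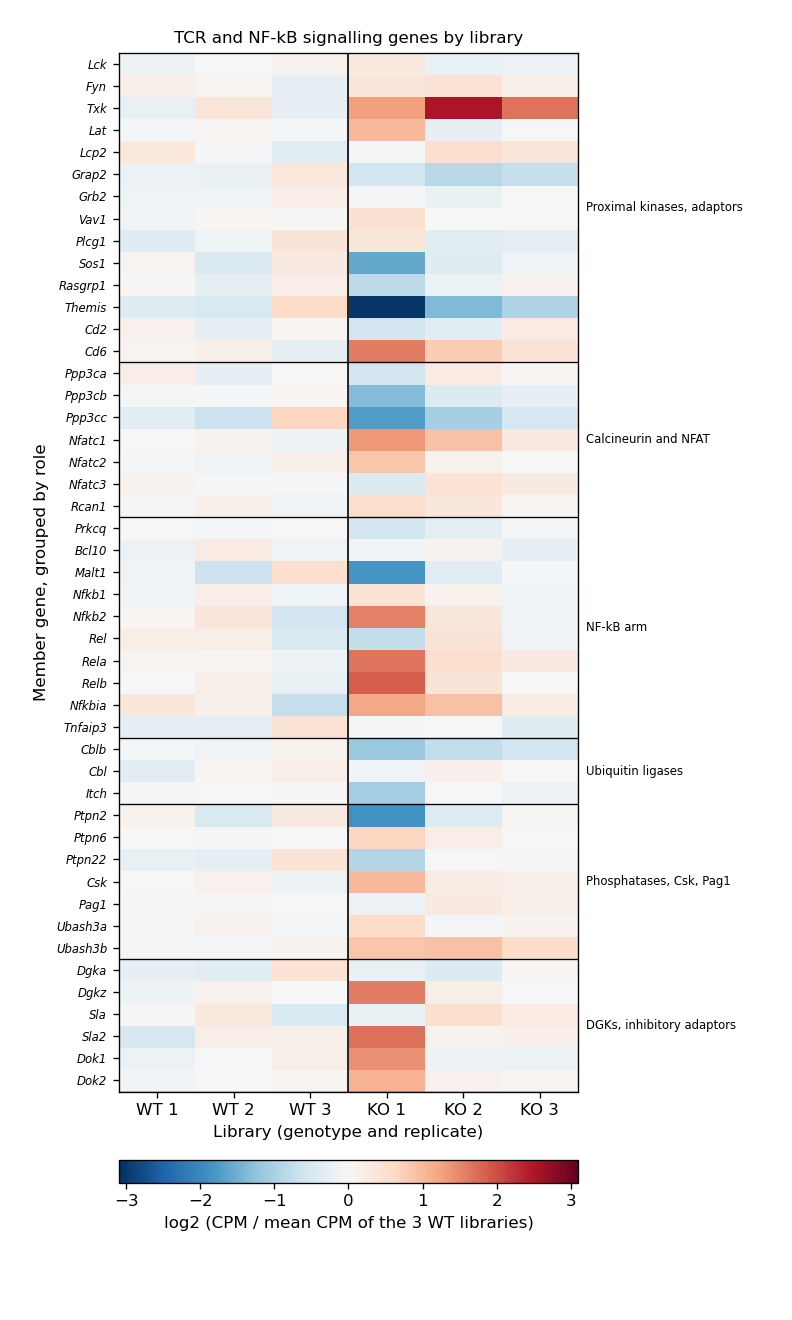
Colour shows, for each of the 47 members (rows, grouped by role) and each library (columns), log2 of CPM over the mean of the 3 WT libraries. Txk is high in all KO libraries and Cblb and Themis low, while KO replicate 1 holds the darkest cells of many other rows, such as Relb and Dgkz (high) and Malt1 and Ptpn2 (low).

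Levels per gene length, given as the authors' FPKM values, spanned more than the list's differences between groups. Cd2, an adhesion and costimulatory receptor of T cells, was the most abundant member at 408 ± 53.8 FPKM in WT and 368 ± 88.6 FPKM in KO (mean ± SD, n = 3 each, as below). Lck stood at 154 ± 20.5 FPKM in WT and 160 ± 50.8 FPKM in KO, against 31.7 ± 3.76 and 41.4 ± 6.15 FPKM for the related kinase Fyn. Txk (Rlk), a Tec family kinase known from resting T cells, was the scarcest member in WT, at 1.04 ± 0.282 FPKM, and stood at 3.93 ± 1.58 FPKM in KO. Among NF-kB subunits Nfkb1 was the most abundant, at 127 ± 17.3 FPKM in WT, and Relb the least, at 7.89 ± 1.14 FPKM. The NFAT factor with the highest level was Nfatc3, at 36.1 ± 0.458 FPKM in WT, where Nfatc1 and Nfatc2 were at 16.03 ± 1.32 and 16.1 ± 2.20 FPKM. Of the calcineurin catalytic subunits, Ppp3ca was scarce (6.23 ± 0.760 FPKM in WT) beside Ppp3cb (36.1 ± 2.66) and Ppp3cc (58.6 ± 32.2). Among negative regulators the phosphatase gene Ptpn2 led at 138 ± 37.6 FPKM in WT, and the membrane adaptor Pag1 was lowest at 3.34 ± 0.281 FPKM.

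**Figure D2:**
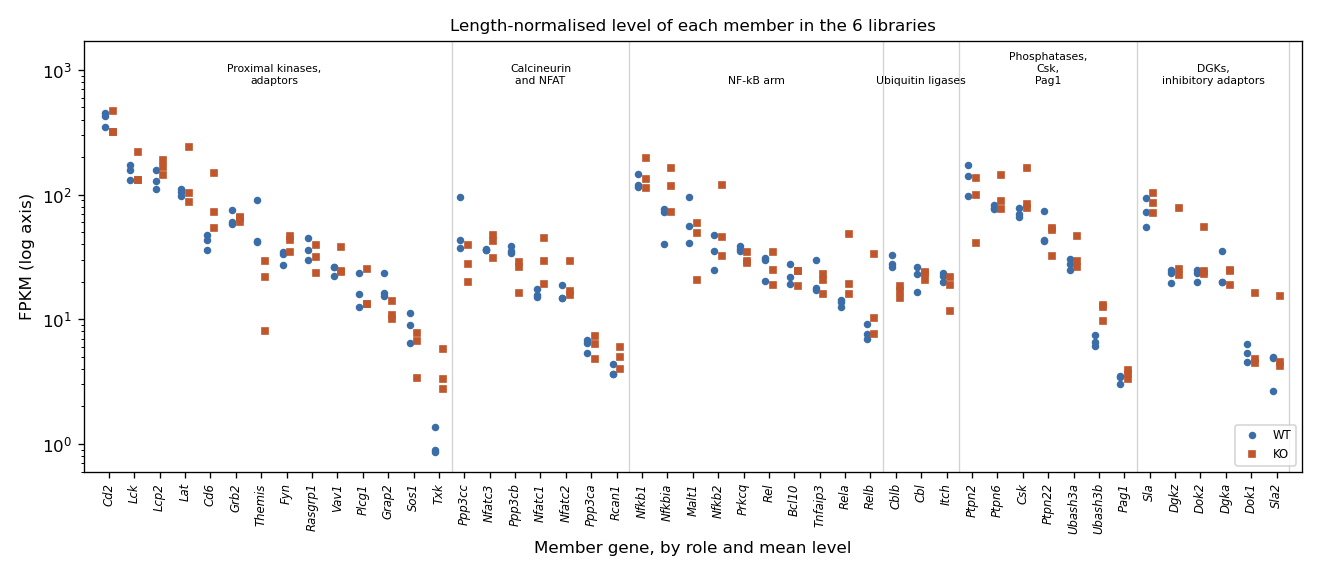
FPKM (log axis) of each member in the 3 WT (circles) and 3 KO (squares) libraries, ordered by mean level within each role. Cd2 has the highest mean level and Txk the lowest, and the groups overlap for most members.

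The proximal kinases and adaptors held both the largest positive and the largest negative difference of the list. Txk was at 2.58, 3.92 and 2.55 CPM in the WT libraries and at 7.22, 17.3 and 9.73 CPM in the KO libraries. Every KO library lay above every WT library, and KO replicate 2 was the highest. Its log2 fold change was +1.92 (SE 0.42, a 3.77-fold higher fitted level), with an edgeR adjusted p of 0.331, while DESeq2 called it (log2 fold change +1.92, adjusted p = 0.00360). In the 2 against 2 fit edgeR called it too (+2.08, adjusted p = 0.0413), where 0.693% of genes were called. Over the fits that left out 1 library the log2 fold change ran from +1.48 (without KO replicate 2) to +2.16, with edgeR adjusted p of 0.127 to 0.999. NK cells also express Txk, and the 8 NK cell markers measured summed to 45.9 to 68.4 CPM in the WT libraries and 42.8 to 97.3 CPM in the KO libraries. Klrk1 and Eomes held most of these sums. Klrb1b (0.275 to 0.718 CPM in WT against 1.40 to 4.53 CPM in KO, highest in KO replicate 2 as Txk was) and Klrb1c (0.181 to 0.789 against 0.869 to 1.91 CPM) had higher values in every KO library. Of the 6 NK markers tested 3 were higher in KO at an unadjusted p under 0.05. Klra8 was at 0 counts in all libraries, Ncr1 reached 2.04 CPM in KO replicate 2 and 0.136 CPM or less in WT, and the part of NK cells in the Txk values was not tested.

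Themis, a T cell adaptor that sets the strength of TCR signals in the thymus, stood at the other end. It was measured at 298, 277 and 576 CPM in the WT libraries and at 47.5, 147 and 201 CPM in the KO libraries. The groups did not overlap, but the highest WT value and the lowest KO value came from the library labelled WT replicate 3 and from KO replicate 1. The log2 fold change of -1.54 (SE 0.52, edgeR adjusted p = 0.573) stood at -0.70 in the 2 against 2 fit. Grap2 (Gads), the adaptor that joins Lcp2 to Lat, was at 119, 117 and 167 CPM in the WT libraries and at 88.8, 74.1 and 82.4 CPM in the KO libraries. Again no KO library reached a WT library, with a log2 fold change of -0.72 (SE 0.23, edgeR adjusted p = 0.562), and -0.57 in the 2 against 2 fit.

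Cd6, a surface receptor of T cells reported to both promote and limit TCR signals, had higher values in KO. It stood at 180, 187 and 139 CPM in the WT libraries and at 510, 293 and 223 CPM in the KO libraries, with all KO libraries above all WT libraries. The log2 fold change was +1.02 (SE 0.33, edgeR adjusted p = 0.559), +0.61 without KO replicate 1 and +0.51 in the 2 against 2 fit. Cd2 was measured at 593, 450 and 568 CPM in the WT libraries and 363, 420 and 642 CPM in the KO libraries, so that the groups overlapped (log2 fold change -0.18, SE 0.28, edgeR adjusted p = 0.861, and +0.05 in the 2 against 2 fit).

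Among the remaining proximal members, Fyn alone had groups that did not overlap. The log2 fold change was -0.01 for Lck (SE 0.24), which stood at 358, 403 and 432 CPM in the WT libraries and 491, 343 and 351 CPM in the KO libraries. Values between -0.24 and +0.35 were found for Grb2, Plcg1, Vav1, Rasgrp1, Lcp2, Fyn and Lat. Fyn stood at 163, 155 and 122 CPM in the WT libraries and at 189, 200 and 166 CPM in the KO libraries (log2 fold change +0.33, SE 0.22, edgeR adjusted p = 0.741). Lat, the membrane scaffold of the complex, stood at +0.35 with KO replicate 1 and at -0.14 without it. In the 2 against 2 fit Rasgrp1 turned from -0.24 to +0.13 and Grb2 from -0.09 to +0.03. Sos1, a Ras exchange factor, stood at -0.57 and, without KO replicate 1, at -0.25. In all, 6 of the 14 proximal members were above 0 (median -0.03), and at an unadjusted p under 0.05 there were 2 with higher values in KO (Txk and Cd6) and 2 with lower (Themis and Grap2), or 28.6% of these members, where 7.51% of all genes tested stood there (4.75% higher and 2.76% lower).

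In the calcineurin and NFAT branch, Nfatc1 had higher and 2 calcineurin subunits lower values in KO. Nfatc1, whose short isoform is induced by TCR signals through NFAT itself, stood at 96.2, 103 and 85.0 CPM in the WT libraries and at 239, 177 and 115 CPM in the KO libraries. All KO libraries exceeded all WT libraries, KO replicate 3 only by a little (log2 fold change +0.90, SE 0.29, edgeR adjusted p = 0.551). The value was +0.63 without KO replicate 1 and +0.58 in the 2 against 2 fit. Counts per gene do not separate its isoforms. Nfatc2 (+0.37) and Nfatc3 (+0.14) overlapped between the groups, and so did Rcan1 (+0.34), a calcineurin inhibitor that NFAT induces, at 9.61 to 11.7 CPM in the WT libraries and 11.1 to 15.4 CPM in the KO libraries.

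Ppp3cb, a catalytic subunit of calcineurin, was at 180, 181 and 191 CPM in the WT libraries and at 72.1, 137 and 155 CPM in the KO libraries, with no overlap. Its log2 fold change of -0.60 (SE 0.30, edgeR adjusted p = 0.682) stood at -0.33 without KO replicate 1. Ppp3cc was at 127, 102 and 254 CPM in the WT libraries and at 48.2, 78.9 and 112 CPM in the KO libraries. These groups overlapped, since KO replicate 3 exceeded WT replicate 2, and the log2 fold change of -1.02 (SE 0.42, edgeR adjusted p = 0.651) was -0.52 without the library labelled WT replicate 3 and -0.24 in the 2 against 2 fit. The remaining catalytic subunit gene, Ppp3ca, stood at -0.05, and at +0.18 in the 2 against 2 fit.

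**Figure D3:**
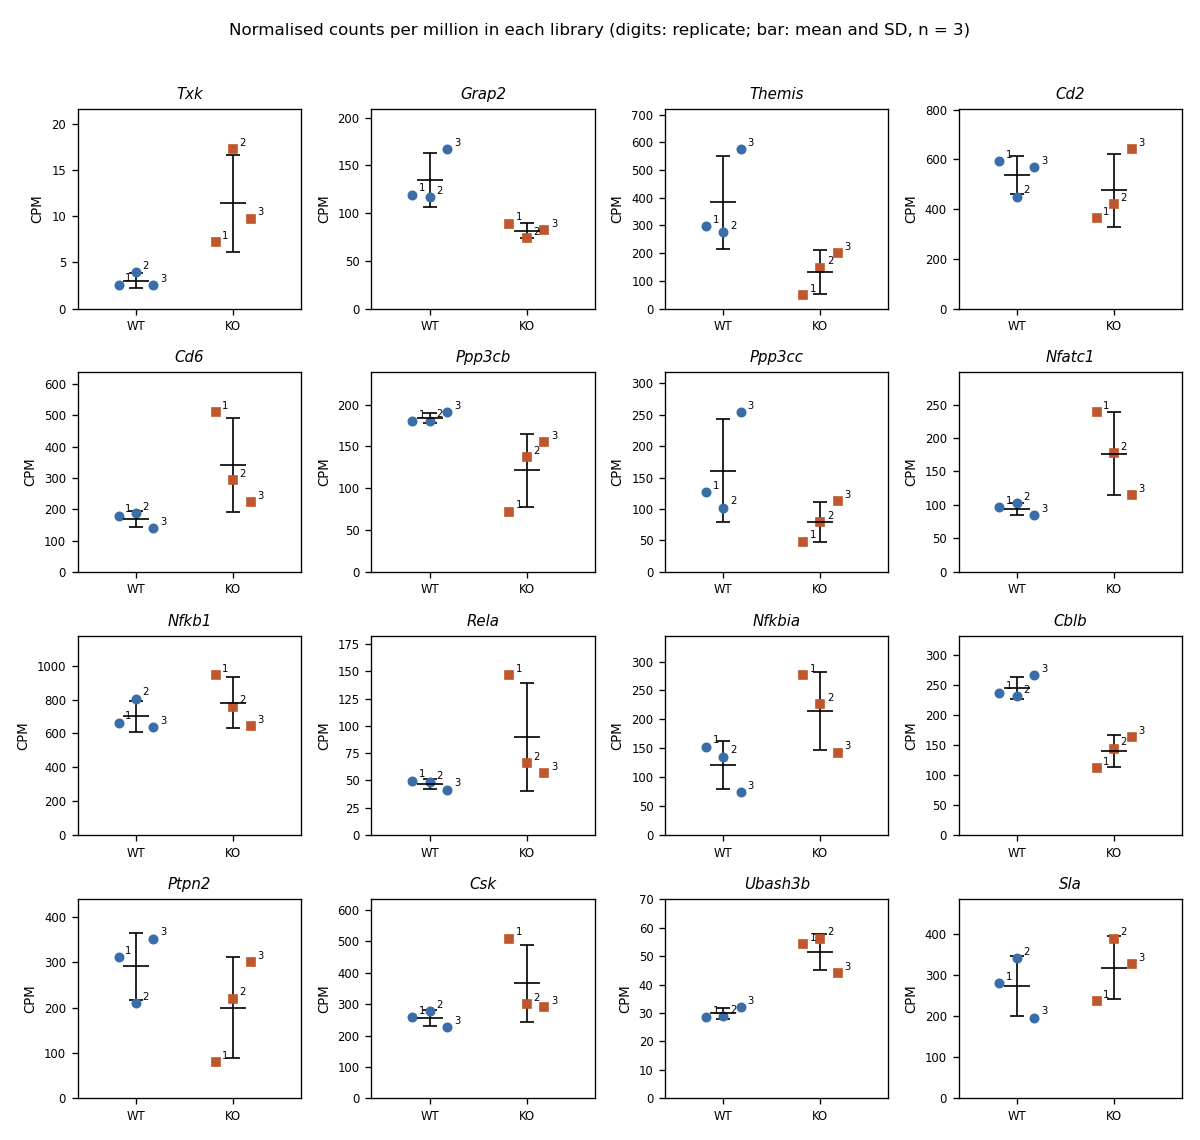
CPM in each library (points, digits give the replicate) with the mean and SD (bars, n = 3) for the 16 members named by the rule; each vertical axis starts at 0. Txk, Cblb, Grap2 and Ubash3b show groups apart with every replicate on its side, and in Rela, Cd6 and Csk KO replicate 1 lies far above the other KO libraries.

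Within the NF-kB arm, the subunit genes Rela, Relb and Nfkb2 and the inhibitor Nfkbia had their highest values in KO replicate 1, and only Rela separated the groups upward. Rela, the main transactivating subunit, stood at 49.7, 48.5 and 41.5 CPM in the WT libraries and at 146, 66.0 and 56.7 CPM in the KO libraries. The log2 fold change was +0.95 (SE 0.36, edgeR adjusted p = 0.639), and +0.40 without KO replicate 1. Relb and Nfkb2, the subunits of the alternative pathway, stood at +1.002 and +0.78, and at +0.22 and +0.14 without KO replicate 1. In the 2 against 2 fit Relb stood at +0.14 and Nfkb2 at -0.07. Relb was at 19.2 to 25.4 CPM in WT, against 82.1, 29.6 and 22.4 CPM in the KO libraries.

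Nfkbia, the inhibitor that NF-kB induces in a feedback loop, was at 153, 136 and 73.7 CPM in the WT libraries and at 276, 227 and 142 CPM in the KO libraries. The groups overlapped, as WT replicate 1 exceeded KO replicate 3, with a log2 fold change of +0.83 (SE 0.35, edgeR adjusted p = 0.651) and of +0.38 in the 2 against 2 fit. The most abundant subunit, Nfkb1, stood at 664, 806 and 635 CPM in the WT libraries and 943, 758 and 643 CPM in the KO libraries, with overlap, although KO replicate 1 lay above every WT library (log2 fold change +0.15, SE 0.24, edgeR adjusted p = 0.861, and -0.05 in the 2 against 2 fit). Tnfaip3 (A20), the ubiquitin-editing inhibitor, was at 100 to 163 CPM in the WT libraries and 93.9 to 121 CPM in the KO libraries.

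Upstream of NF-kB, Prkcq was at 155 to 162 CPM in the WT libraries and 108 to 155 CPM in the KO libraries. Every KO library lay lower, but KO replicate 3 (154.6 CPM) only just below WT replicate 2 (155.5 CPM). Its log2 fold change was small (-0.29, SE 0.22). Bcl10 stood at -0.07. Malt1, the protease of the same complex, was at 388, 270 and 607 CPM in the WT libraries and at 119, 335 and 406 CPM in the KO libraries. Its log2 fold change of -0.56 (SE 0.47) became +0.19 in the 2 against 2 fit.

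Among the negative regulators, Cblb and Ubash3b had the smallest p, in opposite directions. Cblb, the ubiquitin ligase that raises the need for CD28 costimulation, was at 238, 232 and 267 CPM in the WT libraries and at 112, 144 and 164 CPM in the KO libraries. Every KO library lay below every WT library, and the log2 fold change was -0.81 (SE 0.23, a 1.76-fold higher fitted level in WT, edgeR adjusted p = 0.480). It lay between -0.96 and -0.67 with any 1 library left out and at -0.59 in the 2 against 2 fit. Its close relative Cbl stood at 117, 153 and 170 CPM in the WT libraries and 138, 164 and 145 CPM in the KO libraries, a log2 fold change of +0.02 (SE 0.23). The FPKM ratio of Cblb to Cbl, formed after these values had been seen, was 1.598, 1.199 and 1.239 in WT and 0.620, 0.713 and 0.899 in KO. The mean ratio was 1.35 ± 0.220 in WT and 0.744 ± 0.142 in KO (SD, n = 3 each). An exact permutation test gave p = 0.1, the smallest value it can give with 3 libraries each. As the ratio was formed after its values had been seen, this p decides nothing and the ratio is a description. Itch, another ubiquitin ligase, stood at -0.35 and, without KO replicate 1, at -0.09.

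Ubash3b (Sts-1), a phosphatase that removes phosphate from TCR-activated tyrosine kinases, was at 28.6, 29.0 and 32.0 CPM in the WT libraries and at 54.2, 56.1 and 44.1 CPM in the KO libraries. No WT library reached a KO library, and the mean was 29.9 ± 1.87 CPM in WT and 51.5 ± 6.45 CPM in KO (SD, n = 3 each). The log2 fold change was +0.78 (SE 0.22, a 1.72-fold higher fitted level, edgeR adjusted p = 0.473). It lay between +0.72 and +0.86 with any 1 library left out. Ubash3a (Sts-2), its T cell relative, stood at +0.24 with overlapping groups. Myeloid cells express Ubash3b as well: the 15 myeloid markers measured summed to 2.76 to 6.96 CPM in the WT libraries and 11.3 to 16.3 CPM in the KO libraries, mostly Cd68 and Fcer1g. The 2 of them that were tested, Fcer1g (log2 fold change +2.59) and Cd68 (+1.15), were both higher in KO at an unadjusted edgeR p under 0.05. Of all genes tested 4.75% were. Csf1r, Lyz2 and S100a8 were at 0 in all libraries, and Cd14, Itgam, Adgre1 and Spi1 had at most 4 counts. The part of myeloid cells in the Ubash3b values was not tested. Of 8 B cell markers, 6 had at most 5 counts in any library, and their sum was 6.20 to 21.6 CPM in the WT libraries and 5.81 to 8.02 CPM in the KO libraries.

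Csk, the kinase that holds Lck inactive, was at 259, 278 and 227 CPM in the WT libraries and at 509, 300 and 289 CPM in the KO libraries. All KO libraries lay above all WT libraries, but KO replicate 1 carried most of the difference (log2 fold change +0.52, SE 0.28, edgeR adjusted p = 0.706, and +0.21 without it). Ptpn2, a phosphatase for Jak and Src family kinases, stood at 312, 209 and 352 CPM in the WT libraries and at 79.5, 220 and 300 CPM in the KO libraries, with overlap (log2 fold change -0.54, SE 0.45, edgeR adjusted p = 0.763, and +0.02 in the 2 against 2 fit). Ptpn6 (SHP-1) stood at +0.32, Ptpn22 at -0.22 (+0.32 in the 2 against 2 fit) and Pag1, which anchors Csk at the membrane, at +0.11.

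No diacylglycerol kinase or inhibitory adaptor separated the groups (0 of 6 members, where 15.7% of all genes tested did so). Sla (SLAP), which promotes turnover of TCR chains, was the most abundant of these at 281, 342 and 196 CPM in the WT libraries and 237, 389 and 328 CPM in the KO libraries (log2 fold change +0.22, SE 0.29, edgeR adjusted p = 0.839). Dgkz, Sla2, Dok1 and Dok2 stood at +0.79, +0.87, +0.57 and +0.51, and at +0.10, +0.13, -0.17 and +0.10 without KO replicate 1. Dgkz was at 97.8 to 120 CPM in WT, against 331, 123 and 111 CPM in the KO libraries. Dgka, the other diacylglycerol kinase of T cells, stood at -0.18, and at +0.15 in the 2 against 2 fit.

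Negative regulators as a whole had 13 of 19 members above 0 (median +0.24) and activators 13 of 28 (median -0.03), and whether these 2 sides differ was not tested. The median negative regulator stood 0.52 above the WT mean on the log2 scale in KO replicate 1, against 0.14 and 0.07 in KO replicates 2 and 3. For activators these medians were -0.04, 0.05 and -0.01. In the 2 against 2 fit the median log2 fold change was +0.15 for negative regulators and +0.03 for activators.

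The values of KO replicate 1 were ordered by the base composition of the transcripts. KO replicate 1 was the highest or lowest of the 6 libraries for 35 of 47 members (74.5%, near the 71.5% of all genes tested). The library labelled WT replicate 3 was so for 29 of 47 members (61.7%, against 35.3% of all genes tested). The GC content of the longest coding transcript (GENCODE M21) ran from 38.5% for Themis to 61.1% for Relb. The 10 members richest in GC, Relb, Csk, Dgkz, Nfkb2, Rela, Dok1, Lat, Dok2, Cd6 and Nfatc2, all had their highest value in KO replicate 1, at 1.73 to 3.16 times the mean of KO replicates 2 and 3. The 10 poorest in GC, Themis, Ptpn2, Ppp3cb, Sos1, Itch, Rel, Malt1, Ptpn22, Ppp3ca and Nfatc3, all had their lowest value there, at 0.273 to 0.611 times that mean. Across the 47 members, which share their libraries and depth, the log2 ratio of KO replicate 1 to the other KO libraries went with GC content at Spearman's rho = 0.91 (Pearson's r = 0.91), and across 11674 genes at rho = 0.85. Genes are not independent replicates, and this is a description.

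The difference between the groups carried the same order. Its log2 fold change went with GC content at rho = 0.67 over the members and 0.54 over 11674 genes, and at rho = 0.08 and -0.04 in the 2 against 2 fit. Of the 23 members above the list's median GC content of 49.8%, 17 had a log2 fold change above 0 (median +0.37), while 9 of the other 24 did (median -0.11). In the 2 against 2 fit these counts were 16 of 23 (median +0.13) and 16 of 24 (median +0.12). Txk, Cblb, Ubash3b and Grap2 lie between 46.7% and 51.1% GC, and their values of +2.08, -0.59, +0.82 and -0.57 in the 2 against 2 fit kept their direction. So did the other members with an unadjusted p under 0.05 in the edgeR test above. These were Themis (-0.70), Cd6 (+0.51), Nfatc1 (+0.58), Nfkbia (+0.38), Rela (+0.34) and Ppp3cc (-0.24). A fit corrected for GC content and length gave +1.95, -0.79, +0.69 and -0.87 for Txk, Cblb, Ubash3b and Grap2, with edgeR adjusted p of 0.0741, 0.0924, 0.112 and 0.0834. That fit was chosen after seeing the data and called 23 of all genes, against 2 without the correction. At an unadjusted p under 0.05 it held 1407 of all genes and 8 members, against 884 and 10 without the correction. Over the members, the log2 fold change of this corrected fit still went with GC content at rho = 0.35, against 0.04 over 11674 genes. In that fit Rela stood at +0.41, Relb at +0.33, Nfkb2 at +0.14 and Dgkz at +0.16. What sets the composition of KO replicate 1 was not tested.

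**Figure D4:**
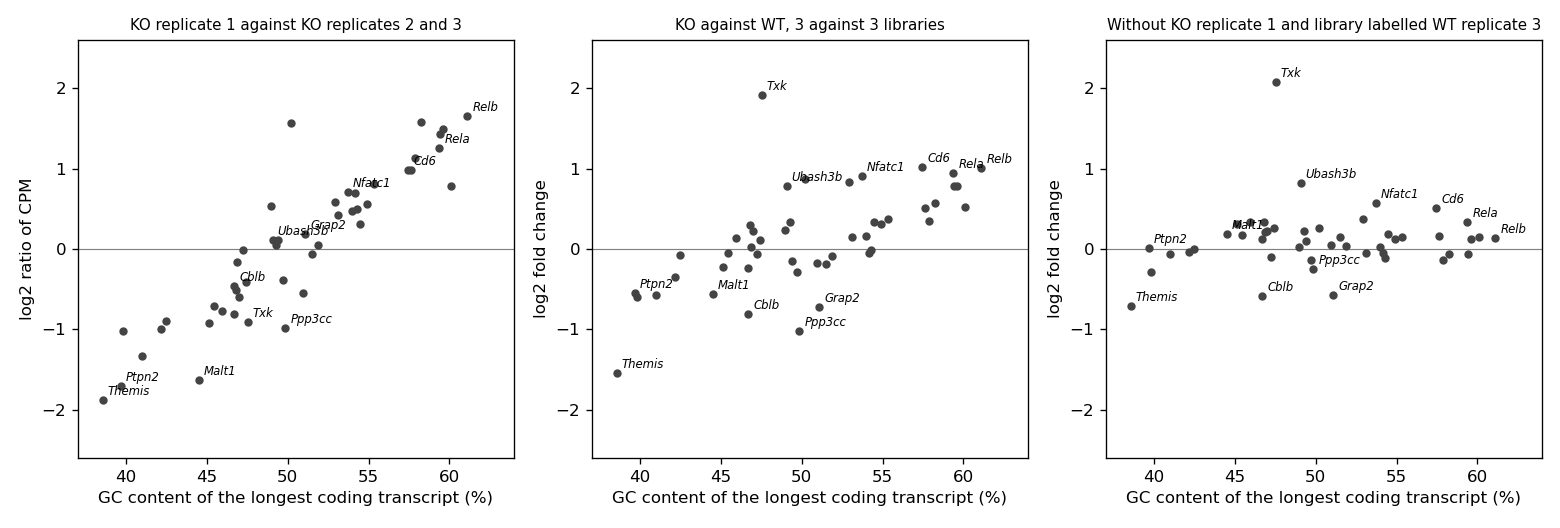
Each point is 1 of the 47 members, placed by the GC content of its longest coding transcript (horizontal, %) and by the log2 ratio of KO replicate 1 to KO replicates 2 and 3 (left), the log2 fold change of KO against WT (middle) and the same in the 2 against 2 fit (right). The slope in the left panel (rho = 0.91) is weaker in the middle (0.67) and nearly absent on the right (0.08). There Txk, Ubash3b, Nfatc1 and Cd6 lie at the upper edge and Themis, Cblb and Grap2 at the lower.

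Other genes of the pathway, from lists that hold no member, gave 0 calls in edgeR as well. Of 66 further activating or receptor-proximal genes 65 were tested, 38 of them above 0, with 3 higher and 2 lower in KO at an unadjusted p under 0.05 (7.69%, near the 7.51% of all genes tested). The smallest p belonged to the receptor chain gene Cd3e (log2 fold change +0.68, SE 0.22) and the coreceptor gene Cd4 (+0.70, SE 0.23), and the scaffold Gab2 stood at -1.30 (SE 0.54, and -0.38 in the 2 against 2 fit). Of 50 further regulators listed as negative 49 were tested, 29 of them above 0, with 7 higher and 1 lower in KO at an unadjusted p under 0.05 (16.3%). They were led by the membrane adaptor Lax1 (+0.96, SE 0.26), Cd5 (+1.07, SE 0.31), the SLAM adaptor Sh2d1a (-0.84, SE 0.25) and Tnip1 (+0.86, SE 0.29), a partner of Tnfaip3. All of their edgeR adjusted p lay at 0.456 or above.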

How the data were processed

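The authors deposited a table of raw whole-number counts with 1 row per symbol, and a table of FPKM values, normalized for length and depth, whose unit is read from the file name and the values. Alignment used STAR 2.4.2a (per the file headers) and mm9 (per the submitters' processing notes), in a VIPER run named in the design text. Not given in the sources used here: the counting tool and its strand setting, so overlapping genes cannot be told apart. Titles and protocols name nTreg cells and were followed over the source field, which gives effector CD4 T cells.

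Counts were tested with edgeR 4.0.16: TMM, filterByExpr (minimum count 10), the quasi-likelihood test and Benjamini-Hochberg adjustment over 11772 genes. CPM are TMM-normalized, and standard errors come from the F statistic. DESeq2 1.42.0 and limma 3.58.1 served as alternatives. The pipeline was tested on simulated counts. A date stands for the symbol in 26 rows (0.271% of counts), which stayed in the library sizes. With 10183626 to 27562046 counts per library, 3 counts equal 0.109 to 0.295 CPM. The design text states 3 mice per genotype, taken as the replicates.

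The members and lists were chosen with earlier results of these data known. Full values are given for members with an unadjusted p under 0.05, members whose groups do not overlap with an absolute log2 fold change of at least 0.5, and the most abundant member (FPKM) of each role. Of other pathway genes, the 4 per list with the smallest p are named, except 1 that is not reported here. Coordinates are GRCm38.p6 (RefSeq) and were not compared with the mm9 counts.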

Additional observations from a re-analysis of the deposited data

How the results depend on the processing

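Of 288 values (16 named members under 18 alternatives), 281 kept direction and side of the threshold, and 2, both for Txk, passed it (DESeq2, and 2 against 2 libraries). The 5 that changed sign were Cd2 (0.0476) and Ptpn2 (0.0179) with 2 against 2 libraries (leaving out KO replicate 1 together with the library labelled WT replicate 3), and Nfkb1 with 2 against 2 libraries (-0.0499), with the GC and length correction (-0.0769) and with 1 library left out (from -0.0047 without KO replicate 1 to 0.2604). Genes called over all genes numbered 2, and 6 with no filter, 129 with DESeq2, 1 with voom, 1 with the replicate block, 0 with limma on log2(FPKM + 1) without a filter, 23 with the GC and length correction, 0 with sex as a covariate and 80 with 2 against 2 libraries, and ran from 0 to 3 with 1 library left out. Members called were 1 with DESeq2 and 1 with 2 against 2 libraries, both times Txk, and 0 otherwise. The median member stood at 0.0296 with the GC and length correction, and ran from 0.0347 (without KO replicate 1) to 0.12 with 1 library left out. Members whose groups did not overlap ran from 13 to 20 of 47 with 1 library left out, while the share of all genes rose as well (from 15.7% to between 19.6% and 29.8%), and with 2 against 2 libraries they were 18, where 45.9% of all genes did not overlap. The GC and length correction, sex covariate and 2 against 2 fit were chosen after seeing the data. Same-numbered libraries did not deviate together in all pairs (correlations of -0.36, 0.15 and 0.14 for numbers 1, 2 and 3), so the numbers were not taken as pairs, and the replicate block called 0 members. The causes of these changes were not tested, and the fits with libraries left out also had fewer samples.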
